A study of Homo sapiens with 6 samples.

Results

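The data described here concern 9 genes in which inherited mutations have been linked to Parkinson disease or parkinsonism: PINK1, PARK7, LRRK2, VPS35, DNAJC6, SYNJ1, ATP13A2, UCHL1 and FBXO7. They were listed by symbol for their link to the disease, by a rule that uses no measured value, though with earlier results of these data known. All 9 were among the 21301 genes of the deposited table. SH-SY5Y cells, a human neuroblastoma line that is widely used as a neuronal cell model, were treated for 72 h with siControl, a control siRNA, or with siPSF at 10 nM, and poly(A) RNA was sequenced from 3 libraries of each group. siPSF targets PSF, a nuclear RNA-binding protein encoded by SFPQ. The methods name a single siRNA against PSF for this experiment and no separate source for each library beyond calling replicates biological, so p-values measure the spread between these 6 libraries. The cells are dividing tumour cells and not dopaminergic neurons, which limits them as a model of the disease.

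The 9 genes act at a small number of places in the cell. PINK1 is a kinase that gathers on damaged mitochondria and marks them for removal by autophagy (mitophagy), PARK7 (DJ-1) takes part in the defence against oxidative stress, and FBXO7 and UCHL1 belong to the ubiquitin system. VPS35 is a core subunit of retromer, which sorts cargo out of endosomes, LRRK2 is a large kinase that phosphorylates Rab proteins, and ATP13A2 is a transport ATPase of the lysosome. DNAJC6 (auxilin) and SYNJ1 (synaptojanin 1) strip the clathrin coat from vesicles after endocytosis, a step on which synaptic vesicle recycling depends.

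Summed over genes, the libraries held between 101540520 and 132420931 counts. Expression is given as CPM, counts scaled to library size, with TMM factors, and a gene is called lower or higher at a Benjamini-Hochberg adjusted p under 0.05 from edgeR's quasi-likelihood test over the 19694 genes that passed the filter on low counts. SFPQ was at 372, 356 and 401 CPM in siControl and at 209, 193 and 165 CPM in siPSF, and 50.2% of its level was left (edgeR, adjusted p = 9.5e-05). The summed level of 11 markers of noradrenergic neuroblastoma, all 11 of them in the table, was 5330 to 5900 CPM in siControl and 4750 to 5700 CPM in siPSF. Of these, TH, the enzyme that makes the dopamine precursor, was under 1 CPM in every library, whereas HAND2 and PHOX2A, transcription factors of the sympathetic lineage, were at 267 CPM or more in every library. Of the markers of other cell types, 1 of 3 astrocyte genes, 1 of 3 immune genes, 2 of 3 epithelial genes and 0 of 3 endothelial genes were in the table. The summed level of each of these lists was at most 4.50 CPM in any library. That of the epithelial markers was 1.87 to 2.41 CPM in siControl and 2.90 to 4.50 CPM in siPSF, and EPCAM among them was called higher (log2 fold change 0.86, edgeR adjusted p = 0.014). Its part in the results below was not tested. The 4 fibroblast markers summed to between 41.2 and 61.5 CPM, most of it from PDGFRB.

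LRRK2 and DNAJC6, the long genes among those called lower, are shown first by the sequence before their starts. DNAJC6 is printed at both of its annotated starts, which differ in composition. The 250 bases upstream of RefSeq starts (GRCh38.p14) are printed 5′ to 3′ on the strand of the gene, with GC boxes, the letters GGGCGG or their reverse complement CCGCCC, in capitals. LRRK2 has 1 start in the table used (chr12:40224747-40224996, plus strand), and DNAJC6 has a distal start (chr1:65264499-65264748, plus strand) and a proximal start (chr1:65309293-65309542, plus strand).
LRRK2: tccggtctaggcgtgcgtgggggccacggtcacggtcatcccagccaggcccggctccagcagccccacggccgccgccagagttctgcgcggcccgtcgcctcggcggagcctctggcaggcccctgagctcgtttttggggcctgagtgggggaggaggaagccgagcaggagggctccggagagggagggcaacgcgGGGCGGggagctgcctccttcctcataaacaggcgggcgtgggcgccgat
DNAJC6, distal start: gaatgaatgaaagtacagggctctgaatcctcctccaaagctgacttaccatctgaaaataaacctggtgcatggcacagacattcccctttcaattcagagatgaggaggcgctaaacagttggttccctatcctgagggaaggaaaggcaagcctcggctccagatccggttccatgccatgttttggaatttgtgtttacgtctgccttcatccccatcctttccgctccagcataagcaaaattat
DNAJC6, proximal start: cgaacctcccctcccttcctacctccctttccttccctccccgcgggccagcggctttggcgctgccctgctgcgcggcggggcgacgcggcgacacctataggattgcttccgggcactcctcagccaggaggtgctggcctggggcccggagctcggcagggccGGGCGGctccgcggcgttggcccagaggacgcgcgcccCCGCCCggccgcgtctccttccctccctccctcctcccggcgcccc
The LRRK2 sequence was 72.8% G and C with 1 GC box. The distal DNAJC6 start, at 47.2%, held no GC box, and the proximal one, at 76.0%, held 2 of them. A GC box was found in 42.6% of all 35116 RefSeq promoters of this length, whose median GC content was 58.0%. The E-box CACGTG, the cAMP response element TGACGTCA, the CCAAT box, the TATA box (letters TATAAA) and the AP-1 site TGANTCA were also searched on both strands. None of them was in these 3 sequences, and over all promoters the shares that hold them were 6.34%, 1.65%, 32.0%, 10.7% and 6.57% in this order. A match or its absence describes the letters in this window only.

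Of the 9 genes, 3 were lower in siPSF (PINK1, LRRK2 and DNAJC6), none was higher, and 6 were not called (edgeR's quasi-likelihood test, adjusted over all genes tested). Over all tested genes 14.9% were called, 8.27% of them lower and 6.65% higher as shares of the tested genes. All 9 genes passed the filter on low counts. Before adjustment, 5 of the 9 had a p under 0.05, against 29.8% of all genes. The libraries of the groups did not overlap for 5 of the 9, against 34.4% of all genes. Among these 5, PINK1, LRRK2, DNAJC6 and SYNJ1 lay lower in siPSF, and 17.8% of all genes separated in that direction. VPS35 lay higher, as did 16.7% of all genes. The median log2 fold change was -0.08 over the 9 genes and 0.01 over all genes tested.

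**Figure D1:**
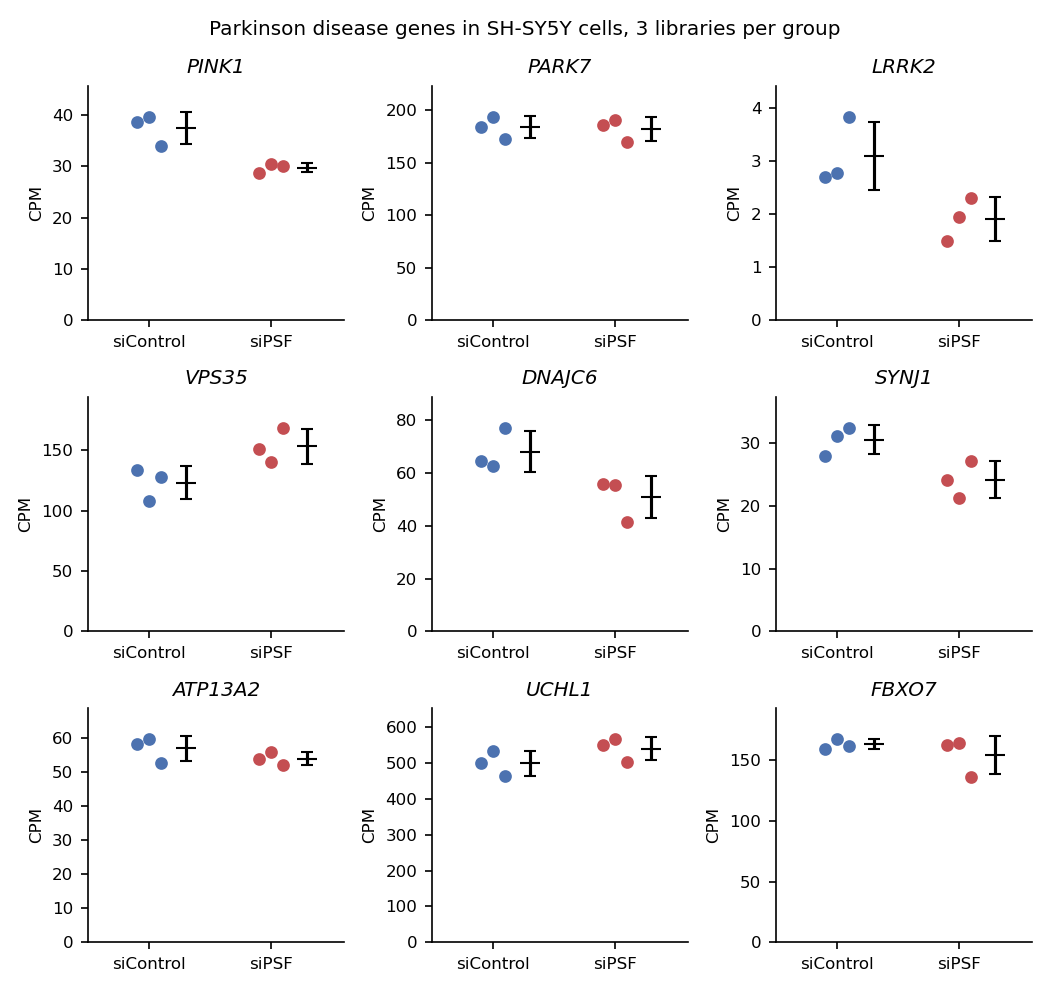
Level of each of the 9 genes in CPM (linear axes from 0) in the 3 siControl libraries (blue) and the 3 siPSF libraries (red), with the mean and SD of each group beside the points. The points of the groups are apart for PINK1, LRRK2, DNAJC6, SYNJ1 and VPS35 and overlap for the other 4 genes.

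Per length of transcript the 9 genes spanned a wide range of levels. In siControl, UCHL1 was at 421 ± 20.8 FPKM (SD, n = 3), PARK7 at 179.7 ± 6.26 FPKM and FBXO7 at 74.8 ± 1.44 FPKM. VPS35 followed with 20 ± 2.9 FPKM, ATP13A2 with 13.3 ± 0.558 FPKM, PINK1 with 13.1 ± 0.765 FPKM and DNAJC6 with 10.9 ± 1.54 FPKM. SYNJ1 stood at 3.69 ± 0.528 FPKM and LRRK2 at 0.32 ± 0.0863 FPKM. The neighbours ATP13A2 and PINK1, and PINK1 and DNAJC6, differed by less than the sum of their SDs. In siPSF the order of the 9 means was the same, from UCHL1 at 431 ± 27.6 FPKM down to LRRK2 at 0.18 ± 0.0369 FPKM.

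PINK1 (gene ID 65018, chr1:20633458-20651511 of GRCh38.p14, plus strand) spans 18.1 kb with 8 exons in its MANE transcript. It was at 38.7, 39.7 and 34.0 CPM in siControl and at 28.8, 30.5 and 30.0 CPM in siPSF. All 3 siPSF values were below the lowest siControl value. The means were 37.5 ± 3.03 and 29.8 ± 0.888 CPM (SD, n = 3), a log2 fold change of -0.33 (standard error 0.09, 95% interval -0.53 to -0.13, edgeR adjusted p = 0.034), which left 79.5% of the control level. The call did not hold when siControl replicate 1, siControl replicate 2, siPSF replicate 1 or siPSF replicate 2 was left out, which gave adjusted p-values of 0.089, 0.13, 0.12 and 0.065 (edgeR), with log2 fold changes between -0.35 and -0.30.

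The count of PINK1 cannot be read apart from its antisense gene. PINK1-AS (gene ID 100861548, chr1:20642657-20652193, minus strand) is a noncoding RNA gene whose exons cover 1545 of the 2657 exonic bases of PINK1, or 58.1%. Whether strand was used in counting is not given in the sources used here. PINK1-AS was at 20.3, 22.8 and 20.2 CPM in siControl and at 25.3, 31.0 and 32.4 CPM in siPSF. It was called higher, by 0.49 on the log2 scale (standard error 0.11, edgeR adjusted p = 0.013). The groups did not overlap, and the antisense gene moved opposite to PINK1. Its share of the counts of both genes was 36.1% on average in siControl and 49.7% in siPSF. The sum of both was 58.9, 62.6 and 54.2 CPM in siControl and 54.2, 61.6 and 62.4 CPM in siPSF. The groups overlap in this sum, with means of 58.6 ± 4.17 and 59.4 ± 4.53 CPM. When both counts were added before the fit, an alternative chosen after the data were seen, the log2 fold change was 0.02 (standard error 0.09, 95% interval -0.18 to 0.22, edgeR adjusted p = 0.92). A fall of PINK1 with a rise of PINK1-AS and another division of the same reads between overlapping genes cannot be told apart from these counts. The microRNA gene MIR6084, also inside PINK1, had 2 counts in every library and was not tested.

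**Figure D2:**
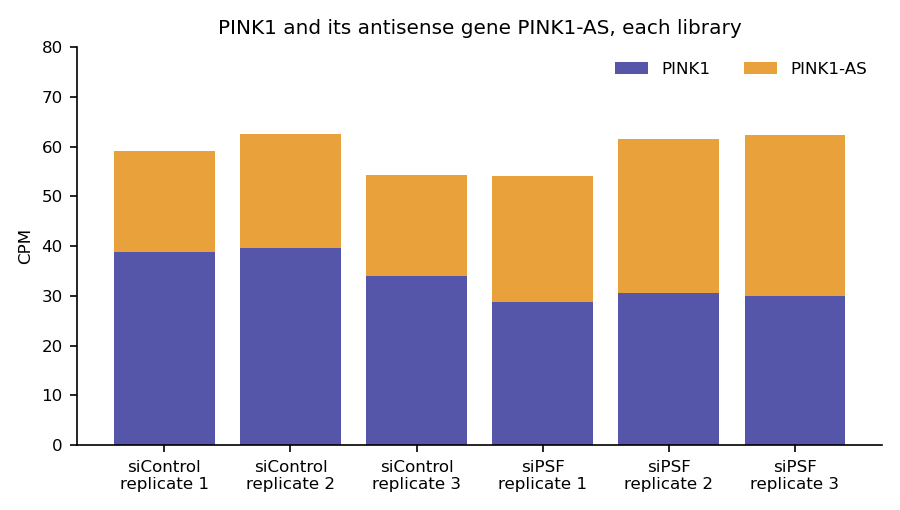
Stacked level in CPM of PINK1 (blue) and its antisense gene PINK1-AS (orange) in each of the 6 libraries, on an axis from 0. The PINK1 part is between 34.0 and 39.7 CPM in siControl and between 28.8 and 30.5 CPM in siPSF, the PINK1-AS part is larger in siPSF, and the whole bars overlap between the groups.

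PARK7 (gene ID 11315, chr1:7961711-7985505, plus strand, 7 exons) was at 184, 194 and 173 CPM in siControl and at 186, 191 and 169.7 CPM in siPSF. The groups overlapped, and only siPSF replicate 3 lay below, and siControl replicate 2 above, all libraries of the other group. The log2 fold change was -0.009 (standard error 0.08, edgeR adjusted p = 0.96), and its 95% interval, -0.19 to 0.17, bounds the difference to a small one in either direction.

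The genes of the ubiquitin system differed little between the groups. UCHL1 (gene ID 7345, chr4:41256928-41268455, plus strand), a ubiquitin hydrolase that is abundant in neurons, was at 499.7, 533 and 463 CPM in siControl and at 548, 567 and 503 CPM in siPSF. Its log2 fold change was 0.11 (95% interval -0.08 to 0.31, edgeR adjusted p = 0.43), and the groups overlapped. FBXO7 (gene ID 25793, chr22:32474811-32498829, plus strand), the substrate-binding part of an SCF ubiquitin ligase, was at 159.8, 168 and 162 CPM in siControl and at 163, 164 and 136 CPM in siPSF. Only siPSF replicate 3 lay below the siControl libraries. The log2 fold change was -0.08 (95% interval -0.28 to 0.12, edgeR adjusted p = 0.60), and it was 0.004 without siPSF replicate 3.

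VPS35 (gene ID 55737, chr16:46656132-46689178, minus strand, 17 exons) had the largest positive difference of the 9 genes. Its level was 134, 108 and 128 CPM in siControl and 151, 140.4 and 169 CPM in siPSF. All siPSF libraries were above all siControl libraries, yet siControl replicate 1 and siPSF replicate 2 were close to each other. The means were 123 ± 14 and 154 ± 14.7 CPM (SD, n = 3), a log2 fold change of 0.32 (standard error 0.10, 95% interval 0.09 to 0.54). The gene was not called (edgeR, unadjusted p = 0.0091, adjusted p = 0.056). Without siControl replicate 1 the adjusted p was 0.048, and without siPSF replicate 2 it was 0.046 (edgeR). It was 0.25 without siControl replicate 2, 0.1 without siControl replicate 3, 0.11 without siPSF replicate 1 and 0.12 without siPSF replicate 3 (edgeR).

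The difference of VPS35 was smaller on the FPKM scale, where the means were 20 ± 2.9 in siControl and 21.4 ± 2.24 in siPSF. The ratio of count to FPKM, which follows the transcript length used for each library, lay -8.86%, -2.52% and 1.94% from its median in the siControl libraries and 6.69%, 7.67% and 5.45% from it in the siPSF libraries. It was higher in every siPSF library, by 0.14 on the log2 scale on average. SYNJ1 had a like spread of 19.0% between libraries and VPS35 one of 18.1%, against a median of 1.34% over the 13115 genes that reached 200 counts in each library. LRRK2 followed with 7.11%, and the other 6 genes did not exceed 1.89%. The part of transcript length in the VPS35 difference was not tested.

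LRRK2 (gene ID 120892, chr12:40224997-40369285, plus strand) is 144 kb long, with 51 exons, and had the lowest level and the largest fall of the 9 genes. It had 328, 370 and 483 counts in the siControl libraries and 177, 205 and 227 counts in the siPSF libraries, or 2.70, 2.77 and 3.84 CPM against 1.49, 1.94 and 2.30 CPM. The groups did not overlap, but siControl replicate 3 stood well above the other siControl libraries. The means were 3.10 ± 0.636 and 1.91 ± 0.407 CPM (SD, n = 3), a log2 fold change of -0.70 (standard error 0.20, 95% interval -1.14 to -0.26, edgeR adjusted p = 0.038), so that 61.5% was left. The adjusted p was 0.073 without siControl replicate 2, 0.15 without siControl replicate 3, 0.13 without siPSF replicate 1 and 0.067 without siPSF replicate 2 (edgeR), with log2 fold changes from -0.79 to -0.52.

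DNAJC6 (gene ID 9829, chr1:65264749-65415871, plus strand), the neuronal auxilin that recruits Hsc70 to clathrin coats, is 151 kb long with 19 exons and an intron of 54.7 kb. It was at 64.4, 62.8 and 77.2 CPM in siControl and at 55.7, 55.4 and 41.6 CPM in siPSF. The groups did not overlap, and siControl replicate 3 and siPSF replicate 3 were the farthest apart. The means were 68.1 ± 7.91 and 50.9 ± 8.05 CPM (SD, n = 3), a log2 fold change of -0.42 (standard error 0.12, 95% interval -0.69 to -0.15, edgeR adjusted p = 0.038), which left 74.7%. The adjusted p was 0.065 without siControl replicate 2, 0.14 without siControl replicate 3 and 0.067 without siPSF replicate 3 (edgeR).

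Within the span of DNAJC6 lie 2 noncoding genes of low count. LOC112268227 (chr1:65311244-65322859) had 4, 5 and 7 counts in siControl and 40, 48 and 45 counts in siPSF. It was called higher, by 3.27 on the log2 scale (standard error 0.39, edgeR adjusted p = 3e-04), while its host gene was called lower. Reads of unspliced DNAJC6 transcripts and of this gene cannot be told apart here. DNAJC6-AS1 (LOC102724416, chr1:65278225-65309384, minus strand) averaged 0.455 CPM in siControl and 0.493 CPM in siPSF and was not called (edgeR adjusted p = 0.84).

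SYNJ1 (gene ID 8867, chr21:32628759-32728394, minus strand, 33 exons), the lipid phosphatase that acts beside auxilin in uncoating, was at 28.0, 31.1 and 32.5 CPM in siControl and at 24.1, 21.3 and 27.2 CPM in siPSF. All siPSF libraries were below all siControl libraries. The means were 30.5 ± 2.33 and 24.2 ± 3.0 CPM (SD, n = 3), a log2 fold change of -0.34 (standard error 0.11, 95% interval -0.58 to -0.10). The gene was not called (edgeR, unadjusted p = 0.010, adjusted p = 0.060). Without siPSF replicate 3 the adjusted p was 0.015 (edgeR). In the other fits with a library left out it was between 0.052 and 0.2 (edgeR). PAXBP1-AS1 (chr21:32728114-32743122, plus strand) overlaps the 5′ end of SYNJ1 by 281 bases outside its MANE exons. It averaged 7.33 CPM in siControl and 5.50 CPM in siPSF (log2 fold change -0.41, edgeR adjusted p = 0.063). With both counts added, an alternative also chosen after the data were seen, the log2 fold change was -0.35 (95% interval -0.58 to -0.13, edgeR adjusted p = 0.039).

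ATP13A2 (gene ID 23400, chr1:16985958-17011928, minus strand, 29 exons) was at 58.3, 59.9 and 52.8 CPM in siControl and at 53.9, 56.1 and 52.1 CPM in siPSF. The groups overlapped, and the log2 fold change was -0.08 (95% interval -0.26 to 0.11, edgeR adjusted p = 0.60).

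**Figure D3:**
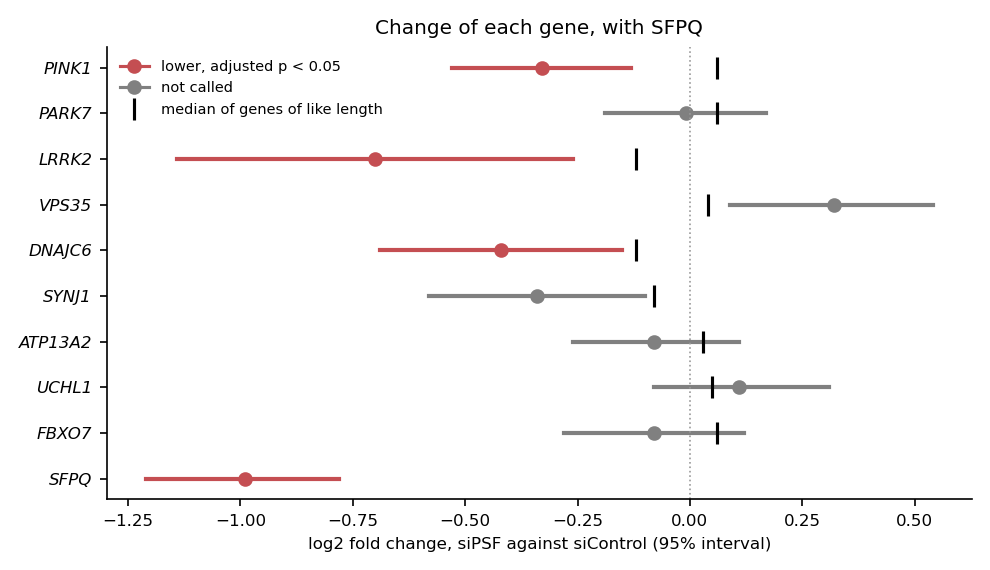
Log2 fold change of each gene (points) with its 95% interval (lines), siPSF against siControl, in red where called lower and in grey where not called, with SFPQ at the bottom and a black tick at the median of genes of like length. PINK1, LRRK2 and DNAJC6 are the genes in red besides SFPQ, and the intervals of VPS35 and SYNJ1 also leave out 0.

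The genes differ in length, and in these libraries long genes had lower log2 fold changes as a whole. The 14418 tested protein-coding genes with a RefSeq length were divided into 20 bins of like length, and each bin named here held 721 genes. In the bin of LRRK2 and DNAJC6, 123 to 167 kb, the median log2 fold change was -0.12 and 17.1% of genes were called lower. In that of SYNJ1, 96.0 to 123 kb, these values were -0.08 and 13.3%. In the bins of the 6 shorter genes the medians were between 0.03 and 0.06, and 2.91% to 5.69% of genes were called lower. Less the median of its bin, LRRK2 was at -0.58, DNAJC6 at -0.30 and SYNJ1 at -0.26 on the log2 scale. PINK1, which is short, was at -0.39 and VPS35 at 0.28 on this scale, while the other 4 genes were between -0.14 and 0.06.

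Related genes of the same families were set beside 6 of the 9 genes as log2 ratios of CPM within each library. GAK, the related auxilin gene, averaged 120.2 CPM in siControl, above DNAJC6 at 68.1 CPM. The ratio of DNAJC6 to GAK was -0.93, -1.0 and -0.54 in siControl and -1.03, -1.19 and -1.47 in siPSF. The groups were apart and differed by -0.40. This difference was -0.26 without siControl replicate 3 and between -0.51 and -0.28 without each of the other libraries. The ratio of ATP13A2 to ATP13A1, an ATPase of the endoplasmic reticulum, was -1.68, -1.72 and -1.63 in siControl and -1.82, -1.92 and -1.93 in siPSF, a difference of -0.21. These were the pairs with the smallest exact two-sided permutation p, 0.1 each and 0.35 after Benjamini-Hochberg adjustment over 7 pairs, and 0.1 is the smallest p that 3 libraries against 3 can give. The other differences were 0.13 for UCHL1 to UCHL3, 0.31 for VPS35 to VPS35L, 0.10 for ATP13A2 to ATP13A3, -0.29 for LRRK2 to LRRK1 and -0.14 for SYNJ1 to SYNJ2, with exact permutation p-values from 0.2 to 0.8. The difference of LRRK2 to LRRK1 was -0.13 without siControl replicate 3, and that of VPS35 to VPS35L was 0.19 without siControl replicate 2. The differences of ATP13A2 to ATP13A3 and of SYNJ1 to SYNJ2 changed sign, to -0.04 and 0.09, without siControl replicate 3 and without siPSF replicate 2. Of the 7 related genes themselves, LRRK1 was called lower (log2 fold change -0.40, edgeR adjusted p = 0.044), and the call was found in 1 of 6 fits with a library left out. UCHL3, VPS35L, ATP13A1, ATP13A3, GAK and SYNJ2 were not called, with log2 fold changes between -0.18 and 0.13.

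Genes that work with the 9 or are related to them, and further parkinsonism genes, were followed in 8 lists, 217 genes tested in all. Of these, 23 were called higher and 8 lower (edgeR), 14.3% together, close to the 14.9% of all genes tested. The calls of 13 of the 31 were also found in each of the 6 fits with a library left out, and 18 were lost in at least 1. With 1 library left out, the number called ranged from 1 to 5 in the list of mitophagy and import, from 3 to 8 in that of antioxidant genes, from 1 to 4 in that of clathrin endocytosis, from 2 to 5 in that of LRRK2 substrates and from 1 to 5 in that of lysosomal genes. None of the 31 changed sign when FPKM rescaled to an equal sum per library was tested, in which 3 of them were not tested. Lists of this kind were chosen by function or disease link with earlier results of these data known, and their counts are a description.

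In the list of mitophagy and import through the outer mitochondrial membrane, the processes in which PINK1 takes part, 5 of 32 genes were called higher and none lower (15.6% called). The median log2 fold change was 0.16, against 0.01 over all genes. TOMM7, a subunit of the import pore that steadies PINK1 on damaged mitochondria, rose from 71.7 to 102 CPM (log2 fold change 0.51, edgeR adjusted p = 0.0025). PHB2, BNIP3 and TAX1BP1, a membrane scaffold and receptors of mitophagy, had log2 fold changes of 0.37, 0.33 and 0.33 and were called in 3 of the 6 fits with a library left out. FUNDC1, another mitophagy receptor, rose by 0.33 on the log2 scale (edgeR adjusted p = 0.043), a call found in 1 of the 6. The list had 5 called genes with all libraries, 3 without siControl replicate 1 or 3, 2 without siPSF replicate 1 and 1 without siControl replicate 2. In the list of antioxidant genes, to which PARK7 is nearest in role, 4 of 28 were called higher and 1 lower. PRDX1, a peroxiredoxin, rose from 110 to 152 CPM (log2 fold change 0.46, edgeR adjusted p = 0.0040), and GLRX, a glutaredoxin, from 2.01 to 3.70 CPM (0.88, edgeR adjusted p = 0.0058). TXN and TXNRD1, thioredoxin and its reductase, had log2 fold changes of 0.36 and 0.29, called in 3 and 2 of the 6 fits. MSRA, which repairs oxidised methionine, fell from 17.9 to 9.62 CPM (-0.90, edgeR adjusted p = 0.0010). The list had 3 called genes without siControl replicate 2, siControl replicate 3 or siPSF replicate 1, and 8 without siPSF replicate 3.

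Among clathrin endocytosis and uncoating genes, the partners of DNAJC6 and SYNJ1, 2 of 39 were called higher and 2 lower (10.3% called). The median was -0.09, with 25 of the 39 below 0. HSPA8 encodes Hsc70, the chaperone that auxilin brings to the coat. It was at 272, 278 and 248 CPM in siControl and at 557, 614 and 679 CPM in siPSF. The groups lay far apart, in the direction opposite to DNAJC6, and the log2 fold change was 1.21 (standard error 0.10, edgeR adjusted p = 3.3e-05). DNM3 and DNM2 encode dynamins, which cut vesicles from the membrane. DNM3 averaged only 1.45 CPM in siControl and 0.73 CPM in siPSF, and DNM2 averaged 125 and 102 CPM. Their log2 fold changes were -1.0 and -0.29 (edgeR adjusted p = 0.014 and 0.034). That of CLTA, a clathrin light chain, was 0.32 (edgeR adjusted p = 0.029). These calls were found in 3, 2 and 2 of the 6 fits with a library left out. Of the 4 called genes of the list, 1 was left without siControl replicate 2 or siPSF replicate 1, and 2 without siControl replicate 3 or siPSF replicate 2.

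The list set beside VPS35 held 24 genes of retromer, the WASH complex and proteins that work near them. Of these, 2 were called lower and 1 higher, with a median of 0.06. No core retromer subunit and no WASH subunit in the list was called. COMMD1, part of the CCC complex, which works beside WASH on endosomes, was at 20.7, 21.0 and 20.5 CPM in siControl and at 11.6, 11.2 and 11.7 CPM in siPSF. The replicates were close to each other and the groups wide apart, and the log2 fold change was -0.85 (standard error 0.10, edgeR adjusted p = 2.1e-04). CCDC93, of the same complex, fell from 70.1 to 51.7 CPM (log2 fold change -0.44, edgeR adjusted p = 0.012). SNX2, a sorting nexin that works with retromer, rose from 18.1 to 26.2 CPM (0.53, edgeR adjusted p = 0.011), and its call was lost without siControl replicate 2.

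In the list of LRRK2 substrates and their partners, 3 of 21 genes were called higher and 2 lower (23.8% called, against 14.9% of all genes). The number called fell from 5 to 2 without siControl replicate 2, siPSF replicate 1 or siPSF replicate 2, and to 3 without siControl replicate 1 or 3. RAB3C, a vesicle Rab, was at 32.2, 30.1 and 33.3 CPM in siControl and at 11.6, 11.2 and 7.95 CPM in siPSF. The groups were far apart, and the log2 fold change was -1.64 (standard error 0.14, edgeR adjusted p = 4.2e-05). RAB3A, its close relative, rose from 14.4 to 25.2 CPM (log2 fold change 0.80, edgeR adjusted p = 0.0023). RILPL2, which binds phosphorylated Rabs, and PPM1H, the phosphatase that reverses LRRK2 phosphorylation, had log2 fold changes of 0.41 and 0.93. The call of each was found in 1 of the 6 fits with a library left out. PPM1H was near the floor, with 29, 34 and 36 counts in siControl and 68, 52 and 41 counts in siPSF. LRRK1, described above, is the other gene called lower.

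In the list of SCF ligases, ubiquitin genes and ubiquitin hydrolases, 3 of 23 genes were called higher and none lower, with a median of 0.07. RPS27A, which encodes ubiquitin fused to a ribosomal protein, rose from 610 to 983 CPM (log2 fold change 0.69, edgeR adjusted p = 9.4e-04). Like HSPA8, it has processed copies elsewhere in the genome, so its count is uncertain to that extent. FBXW7, another F-box protein, rose by 0.33 on the log2 scale (edgeR adjusted p = 0.034), a call found in 2 of the 6 fits with a library left out. In the list of P5-type ATPases and lysosomal genes, the setting of ATP13A2, 4 of 38 were called higher and 1 lower, with a median of 0.06. TPP1, a lysosomal peptidase, rose from 46.2 to 61.9 CPM (log2 fold change 0.42, edgeR adjusted p = 0.0057). GAA, ATP6V1A and NPC2, an enzyme, a proton pump subunit and a sterol carrier of the lysosome, had log2 fold changes of 0.35, 0.37 and 0.33, called in 3, 2 and 1 of the 6 fits with a library left out. ATP13A4, a relative of ATP13A2, averaged 0.609 CPM in siControl and 0.297 CPM in siPSF (-1.03, edgeR adjusted p = 0.024), a call found in 2 of the 6 fits. The number called in this list fell from 5 to 1 without siControl replicate 2 or siControl replicate 3, and to 2 without siPSF replicate 1 or 2. Of 12 further genes linked to parkinsonism, 1 was called, TMEM230, a vesicle membrane protein, which rose from 134 to 173 CPM (0.37, edgeR adjusted p = 0.0082).

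**Figure D4:**
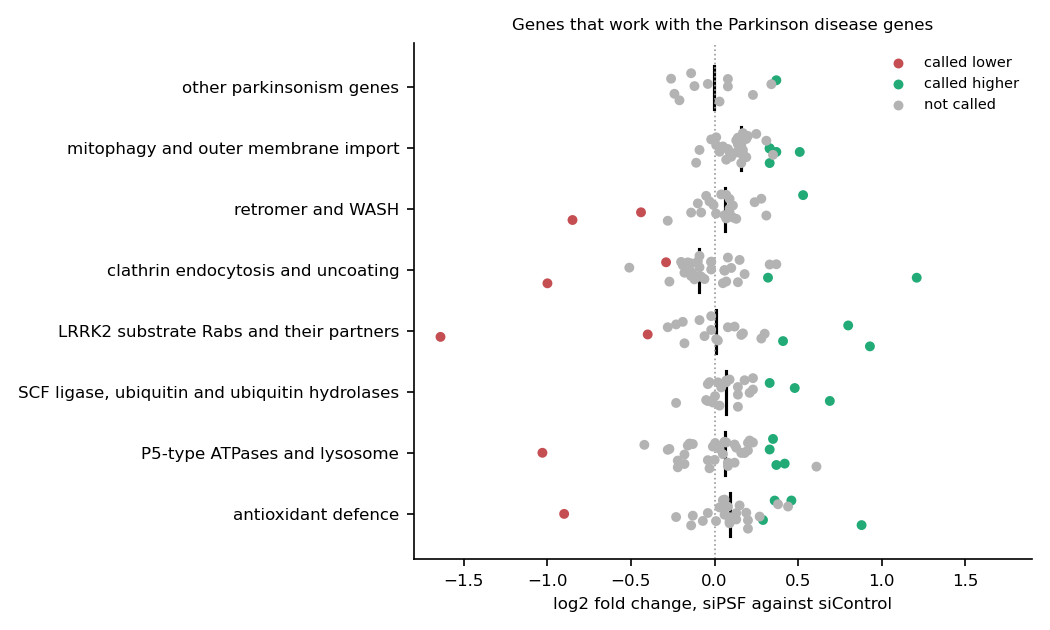
Log2 fold change, siPSF against siControl, of every tested gene in the 8 lists. The lists hold genes that work with or are related to the Parkinson disease genes, and further parkinsonism genes. Called genes are in green (higher) or red (lower), other genes in grey, with a black line at each list's median. The medians lie between -0.09 for clathrin endocytosis and 0.16 for mitophagy and import, and RAB3C at -1.64 and HSPA8 at 1.21 lie farthest from 0.

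The number of the 9 genes that was called moved with the fit, and so did the share of all genes called. Without siControl replicate 1, VPS35 (higher), LRRK2 and DNAJC6 were called, with 12.9% of all genes called. Without siControl replicate 2 none was called and 7.54% of all genes were. In that fit PINK1, LRRK2 and DNAJC6 had log2 fold changes of -0.30, -0.79 and -0.49. Without siControl replicate 3, PINK1 alone was called (8.82% of all genes). Without siPSF replicate 1, DNAJC6 alone was called (9.92%), and without siPSF replicate 2, DNAJC6 and VPS35 were (11.8%). Without siPSF replicate 3, PINK1, LRRK2 and SYNJ1 were called (15.8%). The direction of PINK1, LRRK2, DNAJC6, SYNJ1 and VPS35 was the same in all 6 of these fits.

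With the replicate number as a block, PINK1, LRRK2, SYNJ1 and VPS35 were called (15.4% of all genes). DESeq2's size factors in edgeR gave PINK1, LRRK2 and DNAJC6 again (14.9%). With no filter on low counts PINK1 alone was called (12.0%). DESeq2's Wald test called PINK1, LRRK2, DNAJC6, SYNJ1 and VPS35 (18.9%). Limma on log2(FPKM + 0.5) called PINK1, DNAJC6 and SYNJ1 (17.0%), and an offset of 0.1 gave the same 3 (16.9%). LRRK2 had a mean under 0.5 FPKM and was not tested with limma. Limma on FPKM rescaled to an equal sum per library called 6 of the genes lower, PINK1, DNAJC6, SYNJ1, PARK7, FBXO7 and ATP13A2 (26.1%). In edgeR the median of all genes was 0.01 and 55.4% of all called genes were lower. Limma on log2(FPKM + 0.5) without rescaling gave -0.06 and 70.8%, and with rescaling -0.16 and 88.0%. Relative to the median of -0.16, PINK1 was at -0.34, DNAJC6 at -0.43 and SYNJ1 at -0.35, whereas PARK7, FBXO7 and ATP13A2 were at -0.05, -0.12 and -0.09.

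**Figure D5:**
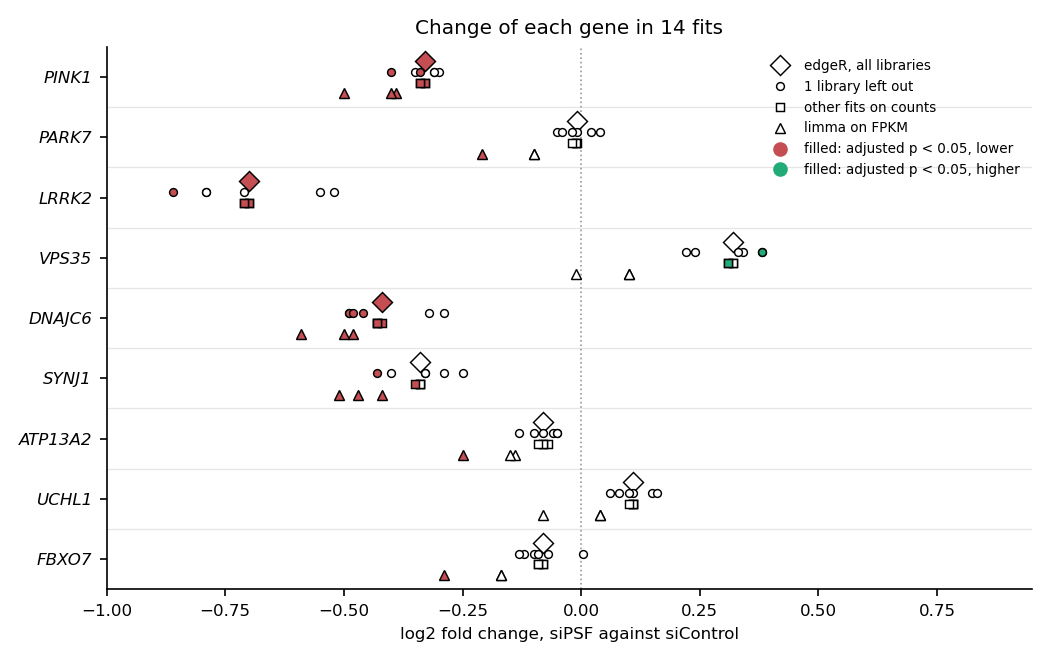
Log2 fold change of each gene, siPSF against siControl, in edgeR with all libraries (diamonds), with 1 library left out (circles), in other fits on counts (squares) and in limma on FPKM (triangles), filled where the adjusted p was under 0.05. PINK1, LRRK2, DNAJC6 and SYNJ1 lie below 0 in every fit shown for them. VPS35 lies above 0 in all but limma on rescaled FPKM, at -0.01. The fits on summed counts of overlapping genes are not shown. In these, PINK1 with PINK1-AS was at 0.02 and SYNJ1 with PAXBP1-AS1 at -0.35.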

How the data were processed

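RNA-seq of 6 SH-SY5Y libraries was used, 3 siControl and 3 siPSF, grouped by their titles. The authors deposited 1 table with a read count per gene and library, without normalization, and an FPKM value. Per the paper's methods, poly(A) libraries were sequenced as 50 bp paired-end reads, and rRNA reads were removed with Bowtie 2 2.2.6. By the same methods, reads were mapped to hg38 with TopHat 2.1.0, and counts on RefSeq were divided by exon length and mapped reads (RPKM). The submitters' processing notes instead name Trimmomatic, HISAT2 2.1.0, StringTie 2.1.3b and GRCh38; which made the table is not settled. The methods name an unstranded kit and the labels a stranded one. The smallest count is 1, and a gene with 0 reads in some library is not analysed here.

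The deposited counts were filtered with filterByExpr, scaled by TMM (factors from 0.964 up to 1.053) and compared by the quasi-likelihood test of edgeR, group being the only term. Benjamini-Hochberg adjustment ran over 19694 genes, and a gene was called at an adjusted p under 0.05. Alternatives were each library left out, the replicate number as a block, size factors from DESeq2, all genes unfiltered, DESeq2's Wald test, and limma on deposited FPKM with offsets of 0.5 and 0.1 (means of at least 0.5), also rescaled to an equal sum. Summing counts of overlapping genes was added after the data were seen. The edgeR fit was checked on simulated counts, and the limma and DESeq2 fits were not. Pairs of replicate libraries differed by a chi-square per degree of freedom of 21.68 or more, so none was a copy.

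The 9 genes and all lists were chosen with earlier results of these data known. Named are the 9 genes, SFPQ, related and overlapping genes, markers, the called genes of each list (at most 4, by p) and, for called members, the 3 genes of at least 10 CPM nearest in pattern. FUNDC1, TXNRD1, PPM1H and NPC2, the fifth called genes of their lists, were named after their values were seen. Some genes that the rule selects are not reported here. Positions and promoters are from RefSeq (GRCh38.p14), in which 97.8% of gene IDs were found, and exons from GENCODE. PINK1 had no promoter entry. Fits ran in R 4.3.3 (edgeR 4.0.16, DESeq2 1.42.0, limma 3.58.1) and summaries in Python 3.11.15.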

Additional observations from a re-analysis of the deposited data

How the results depend on the processing

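Under the alternatives, 241 values stayed on their side of the threshold or within their limits. A further 40 moved beyond them, 14 gained a call, 14 lost one and 8 changed sign. Of the 9 genes, 0 to 3 were called with 1 library left out, where 7.54% to 15.8% of all genes were. The fit without the filter on low counts called 1 (12.0% of all genes), DESeq2's Wald test 5 (18.9%) and rescaled FPKM 6 (26.1%). The number of all genes called with 1 library left out was between 1500 and 3140. Without the filter LRRK2 (-0.71) and DNAJC6 (-0.43) were no longer called (edgeR adjusted p = 0.065 and 0.060). The Wald test called VPS35 (0.31) and SYNJ1 (-0.35). Limma on FPKM called SYNJ1 (-0.42 with an offset of 0.5, -0.47 with 0.1, -0.51 rescaled). Rescaled FPKM also called PARK7 (-0.21), FBXO7 (-0.29) and ATP13A2 (-0.25) and turned UCHL1 to -0.08 and VPS35 to -0.01.

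With 1 library left out, the log2 fold changes ranged from -0.40 to -0.30 for PINK1, -0.86 to -0.52 for LRRK2, -0.49 to -0.29 for DNAJC6, -0.43 to -0.25 for SYNJ1, 0.22 to 0.38 for VPS35, -0.05 to 0.04 for PARK7 (0.02 without siControl replicate 2, 0.04 without siPSF replicate 3), -0.13 to 0.004 for FBXO7, -0.13 to -0.05 for ATP13A2, 0.06 to 0.16 for UCHL1 and -1.07 to -0.90 for SFPQ. The difference in the ratio of ATP13A2 to ATP13A3 ranged from -0.04 to 0.18 and that of SYNJ1 to SYNJ2 from -0.47 to 0.09. Less the median of its length bin, PINK1 was at -0.39. Summed with PINK1-AS, PINK1 was at 0.02, and SYNJ1 summed with PAXBP1-AS1 was at -0.35. The causes were not tested.

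Pairing was looked at in the deviations of log2 CPM from each gene's group mean. In these deviations, siControl and siPSF libraries with the same replicate number correlated at -0.045, 0.203 and 0.098 over 14679 genes. Not every library correlated best with its own number, so the numbers were not taken as pairs. The replicate block called VPS35 (0.32) and SYNJ1 (-0.34), not DNAJC6 (-0.43, edgeR adjusted p = 0.072), and 3029 genes in all against 2938. The limits are 3 libraries per group, 1 siRNA, 1 cell line, and mRNA without protein. LRRK2 rests on 177 to 483 counts per library, and intervals cover the spread between these libraries only.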

Other observations

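For each called gene, the 3 genes of at least 10 CPM whose levels over the 6 libraries followed it most closely were sought among 10497 genes, by the root mean square distance of centred log2 CPM. For PINK1 these were HIRIP3 (distance 0.0283), PKIG (0.0317) and DNM2 (0.0330). DNM2 is a dynamin, and HIRIP3 binds the histone chaperone HIRA. For DNAJC6 they were LONRF2 (0.0323), RHBDD1 (0.0352) and SETBP1 (0.0496), and as in DNAJC6 the highest library was siControl replicate 3 and the lowest siPSF replicate 3. LONRF2, for example, was at 20, 20.1 and 25.4 CPM in siControl and at 18.2, 18.2 and 13.1 CPM in siPSF. For LRRK2, whose counts are lower, the nearest genes lay farther off: ALMS1 (0.127), FBXL19-AS1 (0.133) and IL17RD (0.144). ALMS1, a centrosome gene, was at 69.5, 71.8 and 84.9 CPM in siControl and at 42.5, 49.5 and 51.6 CPM in siPSF. These distances rest on only 6 libraries, divided into siControl and siPSF in the same way for every gene, and describe likeness only.

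DBH, the enzyme that turns dopamine into noradrenaline, was at 1490, 2050 and 1680 CPM in siControl and at 1000, 1100 and 1150 CPM in siPSF (edgeR adjusted p = 0.0024). The groups did not overlap. Among the other markers of the line, ELAVL4 and TH were called lower and GATA3 higher, and the remaining 7 of the 11 were not called. Over all genes tested, 14.9% were called. TH had only 89, 112 and 82 counts in siControl and 44, 44 and 17 counts in siPSF.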
